A study of Mus musculus with 11 samples.

Results

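The genome was cut into fixed windows of 5 kb, counted from position 1 of each chromosome of the mouse build mm9, and searched for windows that acquired the histone mark H3K4me2 in every library whose labels have Cdx2 deleted. A window was kept when it held 2 or more called H3K4me2 nucleosomes in Cdx2 knockout and in both double-knockout lists, and 0 in wild type and in Hnf4a knockout. A nucleosome was counted by its centre, and only with a score of 52 or more. In these lists the score is 10 times the −log10 of the caller's p-value. In all, 729 windows met the rule. They were 0.801% of the 90972 windows with a nucleosome in any of the 5 lists, and 1.58% of the 46010 windows with 2 or more nucleosomes in Cdx2 knockout. They are called the gained windows here. They were chosen by their H3K4me2 counts in the 5 lists, so those counts are given as a description with no test. The peaks of the transcription factors HNF4A and CDX2 were not used in the choice.

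H3K4me2 is dimethylation of histone H3 at lysine 4, a mark carried by the nucleosomes of active promoters and enhancers. CDX2 is a homeodomain transcription factor that sets and maintains the identity of the intestinal epithelium. HNF4A is a nuclear receptor that drives many genes of mature enterocytes, and the 2 factors share many binding sites in this tissue. Nucleosomes flanking an active enhancer usually carry H3K4me2, while the bound factor sits in the gap between them.

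The data are chromatin immunoprecipitation and sequencing (ChIP-seq) lists from villus epithelium of the mouse jejunum, in mice of a mixed 129xC57BL6 background. H3K4me2 was mapped in wild type, in Cdx2 knockout, in Hnf4a knockout and in 2 double knockouts, with 1 library each. For HNF4A there was 1 library of wild type and 1 of Cdx2 knockout, and for CDX2 there were 2 libraries of wild type and 1 of Hnf4a knockout. Each library was prepared from pooled ChIP DNA. How each gene was removed, and the age of the mice, is not stated in the labels. Both double-knockout libraries have labels in conflict. The library titled Cdx2-Cdx1 has a source and a description that name Hnf4a, and the library titled Cdx2-Hnf4a has a description that names Cdx1. Every label of both names Cdx2 as deleted. The libraries are therefore told apart by title alone, and the second deleted gene is left unread.

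At the score minimum, the lists held 245431 nucleosomes for wild type, 256794 in Cdx2 knockout, 250282 in Hnf4a knockout, 281957 in the library titled Cdx2-Cdx1 and 275915 in the library titled Cdx2-Hnf4a. Reads per library are not given, so the depth behind a call is unknown. A window with 0 nucleosomes is one where none was called at that score, which does not show that the mark was absent. Intervals below are 95% intervals and cover counting error only. With 1 library per H3K4me2 group, the spread between animals is unknown.

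Most gained windows held little more than the rule required. In Cdx2 knockout they held 1887 nucleosomes, with a median of 2 and a mean of 2.59 per window, and 484 of the 729 windows had exactly 2. The library titled Cdx2-Cdx1 had 2343 nucleosomes there, with a median of 3, a mean of 3.21 and 303 windows at exactly 2. The library titled Cdx2-Hnf4a had 2590, with a median of 3, a mean of 3.55 and 267 windows at exactly 2. Both double-knockout lists thus put more nucleosomes into these windows than the Cdx2 knockout list did. The library titled Cdx2-Cdx1 had more than Cdx2 knockout in 331 windows, the same number in 312 and fewer in 86. For the library titled Cdx2-Hnf4a the numbers were 378, 290 and 61. The longer double-knockout lists (281957 and 275915 nucleosomes against 256794) move in the same direction, and their part in this was not tested.

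**Figure D1:**
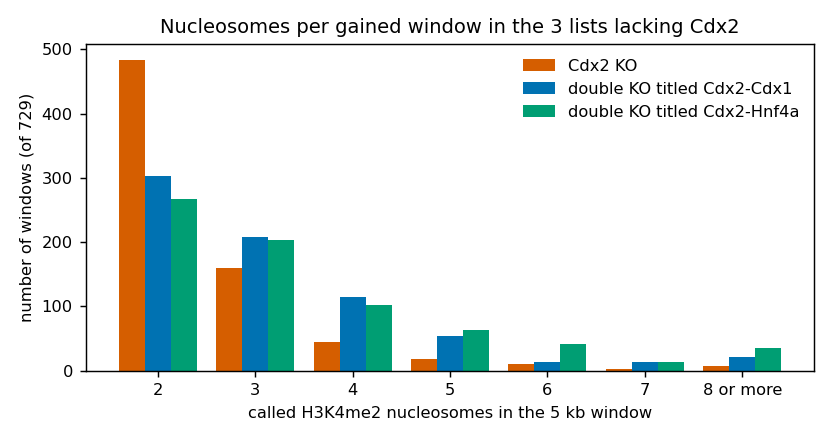
Number of gained windows (vertical axis, of 729) by the number of H3K4me2 nucleosomes called in the window (horizontal axis) in Cdx2 knockout (orange), the library titled Cdx2-Cdx1 (blue) and the library titled Cdx2-Hnf4a (green). Windows at exactly 2, the lowest number the rule allows, number 484, 303 and 267 in the 3 lists, and a thin tail reaches 8 or more.

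The nucleosomes in gained windows scored low within their own lists. Their median score was 94.6 in Cdx2 knockout, with quartiles of 68.2 and 142.1 and a highest value of 1355.8. The median was 109.5 in the library titled Cdx2-Cdx1 and 133.3 in the library titled Cdx2-Hnf4a. Over all nucleosomes at or above the minimum, the medians were 249.7, 199.1 and 238.9 in the same order. Only 6.78% of the Cdx2 knockout nucleosomes in gained windows reached the median of their list, against 20.5% and 24.8% in the double knockouts. The positions were shared between lists. Of the Cdx2 knockout nucleosomes in gained windows, 69.4% had a nucleosome of the library titled Cdx2-Cdx1 centred within 50 bp, and 74.9% had one of the library titled Cdx2-Hnf4a. In all other windows marked in Cdx2 knockout these shares were 73.6% and 75.8%. In those gained in Cdx2 knockout but not in both double knockouts they were 24.8% and 44.5%. The rule required 2 or more nucleosomes of each double-knockout list in gained windows, so the shared positions partly follow from the choice.

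At the edge of the rule, 151 windows held exactly 2 nucleosomes in each of the 3 lists. Just outside it, 1052 windows had 1 nucleosome in one of those 3 lists and met every other condition, 382 failed through a single wild-type nucleosome, and 435 failed through a single Hnf4a knockout nucleosome. An HNF4A peak of Cdx2 knockout overlapped 4 of the 151 windows just inside (2.65%). It overlapped 23 of the 1052 (2.19%), 12 of the 382 (3.14%) and 18 of the 435 (4.14%) just outside. The share just inside has a wide interval (0.726 to 6.64) that holds all the shares just outside, so no difference could be seen. The windows just outside were not limited to exactly 2 nucleosomes in the other lists, so the sets are not strict counterparts.

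The Hnf4a knockout list differs from the other 4 in that it was deposited down to a score of 1.7, whereas the lowest scores of the other lists lie between 50.1 and 51.3. In that list, 612 of the 729 gained windows (84.0%, exact Clopper-Pearson interval 81.1 to 86.5) held at least 1 nucleosome below 52, with a mean of 2.71 per window. The scores of these 1977 nucleosomes ran from 1.7 to 49.6 with a median of 16. Marked windows that could also hold Hnf4a knockout nucleosomes of 52 or more had such low-scoring ones about as often. The share was 82.4% in the other windows with 2 or more nucleosomes in Cdx2 knockout, with a mean of 2.70 per window, and 85.3% in windows with the opposite pattern, described below as lost. It was lower, 74.0% (71.1 to 76.8), in windows gained in Cdx2 knockout but not in both double knockouts, which like the gained windows hold none of 52 or more. It was 6.88% in all other windows with no nucleosome of 52 or more in wild type and Hnf4a knockout, and 4.66% in the windows empty in all 5 lists. Most gained windows thus held a low-scoring call in Hnf4a knockout, as did most marked windows of the other kinds. Of the Cdx2 knockout nucleosomes in gained windows, 36.2% had such a call centred within 50 bp. The share was 29.8% in the gains not shared and 7.98% in the other marked windows. The last value is not a like comparison. Other marked windows held a mean of 4.80 Hnf4a knockout nucleosomes of 52 or more, which can take those positions. The rule barred such nucleosomes from gained windows. Wild type could not be read the same way, because its list ends near the minimum, and 40 gained windows held a wild-type nucleosome between that end and 52. The number of windows that qualified rested on this list, being 117 when no Hnf4a knockout nucleosome of any score was allowed and 1426 when that list was left out of the rule.

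The windows with the most nucleosomes show what a strong gain looks like in these lists. The fullest was chr9:78040001-78045000, with 14 nucleosomes in Cdx2 knockout, 18 in the library titled Cdx2-Cdx1 and 16 in the library titled Cdx2-Hnf4a. Inside it the median scores were 411.6, 338.2 and 468.1. Wild type held no nucleosome of 52 or more inside the window and 1 of 50.1, but it held 5 in the 5 kb before it, with scores of 382.8 to 1403.8. The nearest lay 85 bp from the window. Hnf4a knockout held 6 nucleosomes in the 5 kb before the window, with scores of 150.2 to 1637.4, and 11 inside it with scores of 14.6 to 47.2. All 5 libraries thus shared a marked block on one side of this window, and the 3 lists lacking Cdx2 carried strong nucleosomes on into the window.

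**Figure D2:**
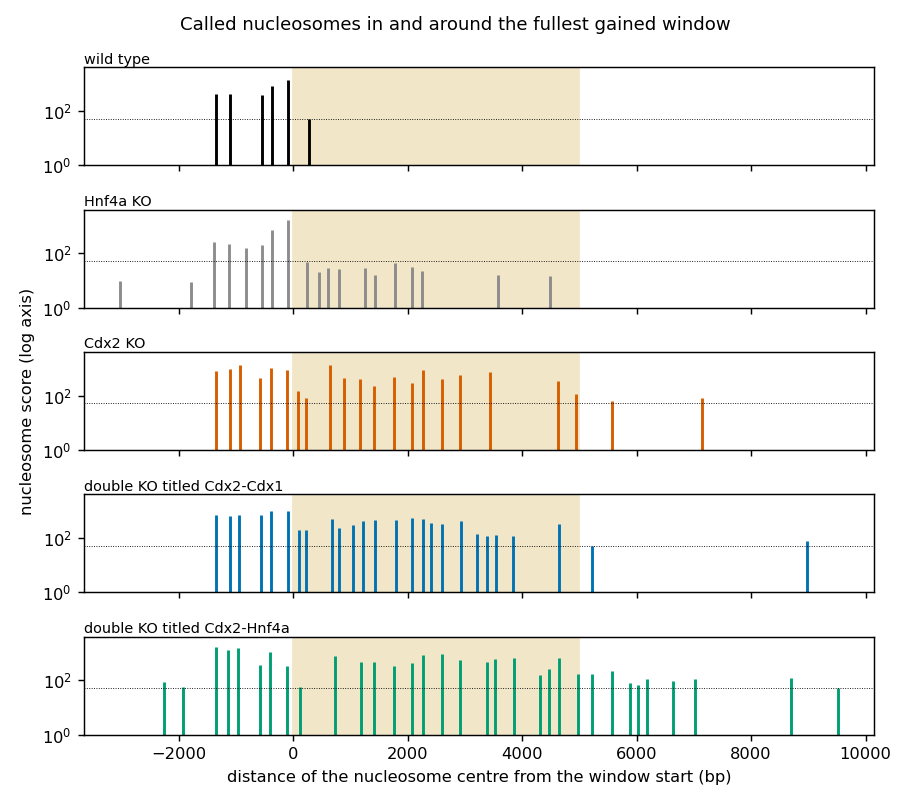
Score of each called nucleosome (vertical lines, log axis) by the distance of its centre from the start of the fullest gained window, in the 5 H3K4me2 lists. The window is shaded and the dotted line marks the score minimum of 52. Before the window all 5 lists hold strong nucleosomes, and inside it the 3 lists lacking Cdx2 hold 14, 18 and 16 above the line while wild type and Hnf4a knockout hold 0.

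The next fullest window, chr7:149620001-149625000, held 10, 14 and 17 nucleosomes in Cdx2 knockout, the library titled Cdx2-Cdx1 and the library titled Cdx2-Hnf4a. It lay 45695 bp from the nearest wild-type nucleosome, so it stood away from any wild-type block. In the same order of lists, chr19:58835001-58840000 held 11, 9 and 9, and chr2:138105001-138110000 held 9, 9 and 10. These counts were even across the 3 lists. Others were not, such as chr2:165480001-165485000 with 3, 11 and 14 and chr17:66615001-66620000 with 4, 6 and 17. The rest of the 10 fullest were chr5:148085001-148090000 with 11, 5 and 10, chr1:65215001-65220000 with 6, 9 and 11, chr15:99420001-99425000 with 5, 8 and 12, and chr14:70610001-70615000 with 6, 9 and 9. Of the 10, 9 lay within 2640 bp of a wild-type nucleosome, and none held a peak of HNF4A or CDX2 in any factor list. The nearest HNF4A peak of Cdx2 knockout to any of them was 877 bp from the chromosome 19 window.

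About as many gained windows bordered a domain already marked in wild type as did not. In wild type, both adjacent windows held a nucleosome for 83 gained windows (11.4%), 1 of them for 281 (38.5%) and neither for 365 (50.1%). A wild-type nucleosome lay within 2 kb of the window edge for 31.0% of gained windows, within 5 kb for 364 (49.9%, interval 46.2 to 53.6), within 20 kb for 83.0% and within 100 kb for 98.6%. The median distance was 5010 bp, with quartiles of 1376 and 14171 bp. Counted in Cdx2 knockout as unbroken runs of windows with a nucleosome, 294 gained windows (40.3%) stood alone. The run held at least 1 window marked in wild type for 370 (50.8%) and none for 359 (49.2%). The gains in Cdx2 knockout that were not shared by both double knockouts had nearly the same positions, with both neighbours marked for 11.96%, 1 for 38.7%, neither for 49.3%, and a wild-type nucleosome within 5 kb for 50.7%. In the other windows marked in Cdx2 knockout the shares were 22.4%, 45.9% and 31.7%, so gained windows more often had no marked neighbour than those.

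The 5 windows farthest from any wild-type nucleosome all had low counts. The window chr8:52490001-52495000 lay 2101726 bp away and held 2, 3 and 3 nucleosomes in Cdx2 knockout, the library titled Cdx2-Cdx1 and the library titled Cdx2-Hnf4a. The same counts were found at chr14:83400001-83405000, which lay 1141520 bp away, and at chr13:26810001-26815000, which lay 558761 bp away. The window chr17:63035001-63040000 lay 191361 bp away with 2, 2 and 2, and chr3:86435001-86440000 lay 172085 bp away with 2, 2 and 3. Their highest score was 70.3 to 183.3 in Cdx2 knockout and 240.1 to 712.6 in the library titled Cdx2-Cdx1. None of these 5 held a peak in any factor list.

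The gain did not end at the edges of the windows. In the 1423 windows next to a gained window and not gained themselves, wild type held 2031 nucleosomes, Hnf4a knockout 2017, Cdx2 knockout 2535, the library titled Cdx2-Cdx1 2960 and the library titled Cdx2-Hnf4a 3107. Scaled by the length of each list, the ratio to wild type was 0.974 (0.915 to 1.04) in Hnf4a knockout and 1.19 (1.12 to 1.27) in Cdx2 knockout. It was 1.27 (1.20 to 1.34) in the library titled Cdx2-Cdx1 and 1.36 (1.29 to 1.44) in the library titled Cdx2-Hnf4a. In Cdx2 knockout, 328 of these neighbours had more nucleosomes than in wild type and 104 had fewer. Farther out the ratio in Cdx2 knockout was 1.16 at 10 kb, 1.14 at 20 kb and 1.06 (0.989 to 1.13) at 30 kb. In the libraries titled Cdx2-Cdx1 and Cdx2-Hnf4a it was still 1.08 and 1.13 at 30 kb. Windows gained in Cdx2 knockout but not shared had neighbours with a similar ratio in Cdx2 knockout, 1.16 (1.10 to 1.23), and with ratios of 1.09 (1.03 to 1.16) and 1.13 (1.07 to 1.20) in the libraries titled Cdx2-Cdx1 and Cdx2-Hnf4a. In the adjacent windows, the raised counts in Cdx2 knockout were therefore not particular to shared gains. Around gains not shared, the ratio in Cdx2 knockout was 1.09 (1.03 to 1.15) at 10 kb and 1.05 (0.986 to 1.11) at 20 kb. Both were lower than around shared gains, with intervals that overlap. The rule did not read these neighbours, but many lie in the same run of nucleosomes as the gained window.

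The 665 windows with the opposite pattern served as a contrast. These held 2 or more nucleosomes in both lists in which Cdx2 was not deleted (wild type and Hnf4a knockout) and 0 in all 3 lists lacking Cdx2, and they were 0.731% of the windows with a nucleosome in any list. Next to them the scaled ratio to wild type was 1.05 in Hnf4a knockout, 0.674 in Cdx2 knockout, 0.646 in the library titled Cdx2-Cdx1 and 0.529 in the library titled Cdx2-Hnf4a. Gained and lost windows thus had neighbours that moved in opposite directions in the lists lacking Cdx2. The 2 sets were chosen for opposite counts in these same lists, and neighbours can share a run of nucleosomes with them. The contrast is therefore a description.

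**Figure D3:**
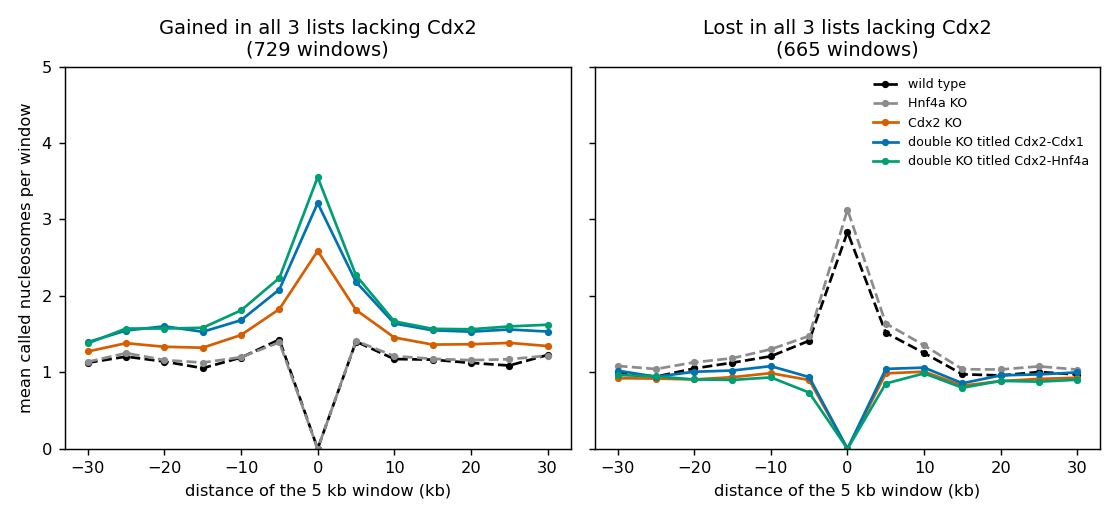
Mean number of called H3K4me2 nucleosomes per 5 kb window (vertical axis) by distance from the gained windows (left) and from the lost windows (right), up to 30 kb on both sides, in the 5 lists. The values at 0 kb follow from the choice of the windows, while 5 kb away the 3 lists lacking Cdx2 lie above wild type around gained windows and below it around lost ones. Neighbours can share a run of nucleosomes with the chosen windows, so their values are not independent of the choice.

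Most gained windows had no other gained window nearby. The 729 are few among the 528213 windows of the genome. How often an even spread would join them was not computed, so the shares below do not show that they are dispersed. Joined where the gap was 25 kb or less, 80 of the 729 (11.0%, interval 8.80 to 13.5) fell into 39 clusters, made of 37 pairs and 2 triples, and 649 stood alone. In 13 cases 2 gained windows were directly adjacent. The triple at chr9:108675001-108695000 held 9, 14 and 20 nucleosomes in its gained windows in Cdx2 knockout, the library titled Cdx2-Cdx1 and the library titled Cdx2-Hnf4a. Between those windows its span also held 8 nucleosomes of wild type and 6 of Hnf4a knockout, so its gained windows lay around an existing mark. The triple at chr6:28680001-28720000, spread over 40 kb, held 6, 8 and 9, with 2 wild-type nucleosomes elsewhere in its span.

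Pairs completed the 5 clusters described by name. The adjacent pair at chr7:149615001-149625000, which contains the second fullest window, held 12, 16 and 22 nucleosomes, and its span holds no window beyond the 2 gained ones. The pair at chr14:70600001-70615000 held 9, 12 and 17, with 13 wild-type nucleosomes elsewhere in the span. The pair at chr2:165455001-165485000 held 6, 13 and 18, with 1. No gained window of these 5 clusters held an HNF4A peak or a CDX2 peak of wild type. The next cluster in order, chr5:30785001-30800000, held the highest-scoring HNF4A peak described below and is named for that reason. Gained windows were present on every chromosome but Y and M. Per window marked in Cdx2 knockout, their share ran from 7 of 893 on X (0.784%, interval 0.316 to 1.61) to 49 of 1850 on chromosome 15 (2.65%, interval 1.97 to 3.49).

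HNF4A peaks were less frequent in gained windows than in other marked windows and more frequent than in unmarked ones. In Cdx2 knockout, an HNF4A peak overlapped 28 of the 729 (3.84%, interval 2.57 to 5.50). In the other 45281 windows with 2 or more nucleosomes in Cdx2 knockout, nearly all of which also carried one in wild type or Hnf4a knockout, the share was 15.9%. With nucleosome scores of 100 or more required, 559 windows met the rule for gained windows and the HNF4A share among them was 6.98%. At the minimum of 52, the difference between gained and other marked windows was −12.1 percentage points (Newcombe interval −13.3 to −10.4). In all other windows unmarked in wild type and Hnf4a knockout the share was 0.183%, a difference of 3.66 points (2.49 to 5.31). In the lost windows it was 13 of 665 (1.95%), a difference of 1.89 points (0.0911 to 3.73). The other marked windows hold more and stronger nucleosomes. Weighted to the nucleosome counts of the gained windows, their HNF4A share was 10.1%, and weighted to the summed nucleosome scores of the gained windows it was also 10.1%. Among the other marked windows, 920 had gained the mark in Cdx2 knockout by the same criteria but had fewer than 2 nucleosomes in at least 1 double knockout. Of these, 30 held an HNF4A peak (3.26%), and the difference from the gained windows was 0.580 points (−1.21 to 2.50). That interval includes 0, so the HNF4A share of gains found in all 3 lists could not be told apart from that of gains that were not.

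No rise of the HNF4A share with the number of nucleosomes was seen, although few windows had many. It was 18 of 484 (3.72%, interval 2.22 to 5.81) in windows with 2 nucleosomes in Cdx2 knockout, 8 of 160 (5.0%, interval 2.18 to 9.61) with 3 and 2 of 85 (2.35%, interval 0.286 to 8.24) with 4 or more. In the other marked windows the same shares were 8.36%, 11.8% and 20.7%, rising with the count. Gained windows with an HNF4A peak had the same median counts (2, 3 and 3) as those without. By position, a peak overlapped 2 of 83 gained windows between marked neighbours (2.41%), 13 of 281 with 1 marked neighbour (4.63%) and 13 of 365 with none (3.56%).

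Nearby, peaks were less frequent than around the other marked windows and more frequent than around the lost windows. An HNF4A peak of Cdx2 knockout lay inside or within 5 kb for 104 gained windows (14.3%) and within 25 kb for 280 (38.4%), and the median distance was 44275 bp. The shares within 5 kb were 14.0% for gains not shared, 27.04% for the other marked windows and 8.12% for the lost windows. Within 25 kb they were 36.0%, 47.8% and 26.3% in the same order.

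CDX2 itself was called in few of these windows in wild type. A wild-type CDX2 peak of either library overlapped 31 gained windows (4.25%, interval 2.91 to 5.98), 20 in library 1 and 18 in library 2, and 7 windows (0.960%) held a peak in both. In the lost windows the share was 250 of 665 (37.6%), a difference of −33.3 points (−37.3 to −29.4). The size of this difference rested on library 1. It was −31.8 points (−35.7 to −28.0) with library 1 alone and −9.71 points (−12.6 to −7.04) with library 2 alone. The rule required lost windows to be marked in wild type and gained windows to be unmarked there. This contrast, like that for wild-type HNF4A below, is therefore between windows unlike in the wild-type mark by choice. In the other marked windows the CDX2 share was 14.3%, a difference of −10.02 points (−11.3 to −8.27). The share was 12.1% when weighted to the summed scores of the gained windows. With library 1 alone this difference was −9.81 points (−10.8 to −8.32), and with library 2 alone it was −1.47 points (−2.39 to −0.0554). Against gains not shared, at 22 of 920 (2.39%), the gained windows were higher by 1.86 points (0.133 to 3.76). With library 1 alone the difference was 1.11 points (−0.304 to 2.70), an interval that includes 0, and with library 2 alone it was 1.71 points (0.502 to 3.16). Over all other windows unmarked in wild type and Hnf4a knockout, 1.98% held a CDX2 peak. Where a CDX2 peak was present, its score was of the usual size for its list. In library 1 the peaks in gained windows had a median score of 74.975, against 70.42 over the list, and in library 2 the median was 63.49 against 57.99.

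Wild-type HNF4A overlapped 41 gained windows (5.62%, interval 4.07 to 7.55), against 26.9% of the other marked windows and 204 lost windows (30.7%). In all, 621 of the 729 gained windows (85.2%, interval 82.4 to 87.7) held no peak of HNF4A or CDX2 in any of the 5 factor lists. The share without any peak was 91.5% in the gains not shared, 62.7% in the other marked windows, 46.0% in the lost windows and 96.4% in all other windows unmarked in wild type and Hnf4a knockout. Windows without a factor peak were thus more frequent among gained than among other marked windows (difference 22.5 points, 19.7 to 24.96), and less frequent than among gains not shared (−6.34 points, −9.55 to −3.23).

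**Figure D4:**
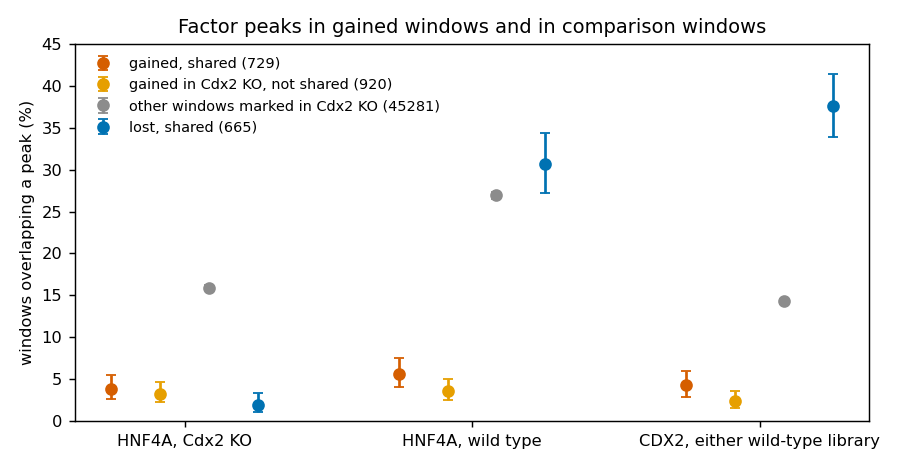
Share of windows that overlap a peak (vertical axis, percent, with exact 95% intervals) for HNF4A in Cdx2 knockout, HNF4A in wild type and CDX2 in either wild-type library, in gained, gained but not shared, other marked and lost windows. Gained windows sit at 3.84%, 5.62% and 4.25%, below the other marked windows in all 3 and far below the lost windows for CDX2 and wild-type HNF4A.

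The HNF4A peaks that did lie in gained windows were mostly ones not called in wild type. There were 29 such peaks of Cdx2 knockout in 28 windows. Over the whole list of 9676 peaks, 29.6% had no wild-type peak overlapping by 1 bp or more. In gained windows 26 of the 29 had none (89.7%, interval 72.6 to 97.8), against 29.4% (28.5 to 30.3) of the 9647 peaks elsewhere. The difference was 60.2 points (44.2 to 67.0). Peaks in gained windows scored lower than the rest, with a median of 69.19 against 81.15, and the share elsewhere at the same scores was 38.2%. In the windows gained but not shared, 23 of 31 peaks (74.2%, interval 55.4 to 88.1) were not called in wild type. These windows, like the gained ones, were chosen to be unmarked in wild type, whereas the peaks elsewhere were not limited in this way. Wild-type HNF4A overlapped 26.9% of the other marked windows and 0.810% of all other windows unmarked in wild type and Hnf4a knockout. How much of the 60.2 points follows from the choice of windows was not tested. Read the other way, gained windows held 26 of the 2865 HNF4A peaks called only in Cdx2 knockout (0.908%), and 3 of the 6811 also called in wild type (0.0440%).

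Many wild-type HNF4A peaks had no counterpart in Cdx2 knockout. The wild-type list held 22376 peaks and the Cdx2 knockout list 9676, and 69.9% of the wild-type peaks were not called in Cdx2 knockout. The unequal lengths alone leave many wild-type peaks without a counterpart, so this share is not read as loss of binding. Of the 43 wild-type peaks in gained windows, 38 were not called (88.4%, interval 74.9 to 96.1), against 69.8% elsewhere. At the same scores the share elsewhere was 86.3%, close to that of the gained windows. At matched scores, but not at matched wild-type H3K4me2, gained windows thus differed from the rest for peaks of the knockout list (89.7% against 38.2%). For peaks of the wild-type list they did not visibly differ. Whether gained windows differed from gains that were not shared, where 74.2% of knockout peaks were not called in wild type, is undetermined. The shares rest on 29 and 31 peaks, their intervals overlap, and no interval of the difference was computed.

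The positions of nucleosomes near these 29 HNF4A peaks are given as a description, since the rule itself put nucleosomes of the 3 lists lacking Cdx2 into these windows and kept those of the other lists out. A Cdx2 knockout nucleosome was centred within 1 kb of 23 of them, one of the library titled Cdx2-Cdx1 for 24, one of the library titled Cdx2-Hnf4a for 23, and nucleosomes of all 3 for 22. A wild-type nucleosome lay that close to 0 and one of Hnf4a knockout to 1. For 16 of the 29, Cdx2 knockout had a nucleosome within 500 bp on both sides of the peak centre. No CDX2 peak of either wild-type library overlapped any of the 29.

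The peak with the highest score, 135.44, lay at chr5:30787072-30787341 in the window chr5:30785001-30790000, which held 2, 3 and 2 nucleosomes in Cdx2 knockout, the library titled Cdx2-Cdx1 and the library titled Cdx2-Hnf4a. Measured from the peak centre, here and below, the nearest Cdx2 knockout nucleosomes were centred 80 bp to the left and 280 bp to the right. The second, at chr2:35445545-35445850 with a score of 126.01, had them 306 bp to the left and 89 bp to the right, and counts of 2, 2 and 4. The third, at chr8:108329396-108329610 with a score of 111.11, had them at 212 and 123 bp, and counts of 2, 3 and 3. All 3 thus had marked nucleosomes centred on both sides of the peak centre. For the first and second peak the closer of them (80 and 89 bp) was centred inside the called peak, so these are not pairs flanking the whole peak.

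The fourth peak, at chr15:78247548-78247912, had a score of 107.28. In Cdx2 knockout a nucleosome was centred 44 bp to the left of its centre, inside the peak, but none to the right for 5136 bp. The fifth, at chr6:23034640-23034810 with a score of 97.88, shared its window with a second HNF4A peak of score 73.61, and was the only one with an Hnf4a knockout nucleosome within 1 kb. None of these 5 peaks was called in wild type. The next 4 by score, none called in wild type, lay at chr7:31702462-31702633 (83.04), chr7:123844021-123844160 (80.75), chr7:132861243-132861421 (78.89) and chr11:76634985-76635267 (76.36). The window of the last held 3, 7 and 8 nucleosomes, the highest sum among the windows of these 9 peaks. The tenth, at chr18:36862774-36863064 with a score of 74.34, was also called in wild type.

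**Figure D5:**
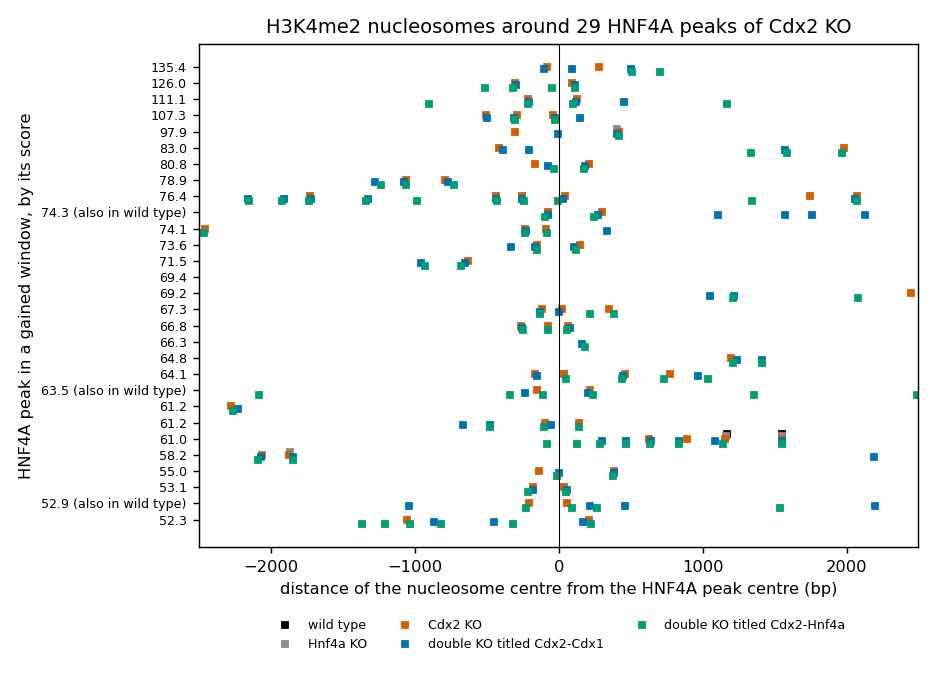
Positions of called H3K4me2 nucleosomes (squares, coloured by list) within 2500 bp of the centres of the 29 HNF4A peaks of Cdx2 knockout in gained windows, 1 line per peak in order of peak score. Nucleosomes of the 3 lists lacking Cdx2 lie within 1 kb of most peaks and wild type has none that close, which follows largely from the choice of the windows, and 3 of the 29 peaks were also called in wild type.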

How the data were processed

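The windows, their rule and the comparison sets were chosen with earlier results of these data known. The authors deposited, for each H3K4me2 library, a list of called nucleosomes with a score, which per the file headers is 10 times the −log10 of a p-value, and for each factor library a list of peaks with a score whose meaning is not given in the sources used here. Nor are the aligner, the callers or any control. The submitters' processing notes give the build as mm9, and positions are printed from 1. Villi were freed with 15 mM EDTA and kept on a 70 µm filter, per the labels' protocols. Of 11 samples, 10 had a list that was used, and the input DNA was not analysed here. Whether the 2 wild-type CDX2 libraries stem from different animals is not labelled.

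Nucleosomes were assigned to windows by their centres. A peak belonged to a window it overlapped by 1 bp or more. Each share has an exact Clopper-Pearson 95% interval and each difference a Newcombe interval, called where the interval leaves out 0. Each scaled ratio of neighbour counts has an exact binomial interval that treats nucleosomes as independent. Lists share positions and nucleosomes lie in runs, and these intervals do not account for that. Shares at equal nucleosome counts were directly standardised, with counts of 10 or more pooled, and shares at equal scores used 10 bins. No p-value was computed. Windows named were the 10 fullest, the 5 largest clusters, the windows of the 10 highest-scoring HNF4A peaks and the 5 windows farthest from a wild-type nucleosome. No annotation of mm9 was used, so windows carry no gene names, lists of cell type markers could not be used, and no sequence is printed. Alternatives covered the score minimum, the counts, the window grid, the lists required and the distances. Scripts used Python 3.11.15, numpy 2.4.6, pandas 2.3.3, scipy 1.17.1 and matplotlib 3.10.9, and were tested on simulated data.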

Additional observations from a re-analysis of the deposited data

Results flagged for a closer look

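The Hnf4a knockout list held nucleosomes below the score minimum in 84.0% of the gained windows, a signal in values that the comparisons leave out. This is listed because the share was 4.66% in the windows empty in all 5 lists. It was 82.4% in the other windows marked in Cdx2 knockout, 85.3% in the lost windows and 74.0% in the gains not shared. Marked windows of other kinds thus had a high share too, lowest in the gains not shared. The other lists end near the minimum and cannot be read the same way. Of the 117 gained windows without any such nucleosome, 7 held an HNF4A peak of Cdx2 knockout (5.98%).

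The CDX2 list of Hnf4a knockout was used in the report for statements on windows without any factor peak, and its own share was not compared there. Its peaks overlapped 17 gained windows (2.33%, interval 1.36 to 3.71), against 0.842% (0.816 to 0.869) of all other windows unmarked in wild type and Hnf4a knockout, which is why it is listed. It was 3.25% in the other marked windows, a difference of −0.914 points (−1.80 to 0.466) whose interval includes 0, 5.71% in the lost windows and 0.870% in the gains not shared. Their median score was 54.26, against 57.67 over the list.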

How the results depend on the processing

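The number of gained windows was 729. It was 136 with all nucleosomes as deposited, 470 with lists of equal number, 3799 with 1 or more nucleosomes required, 167 with 3 or more, 1108 without the library titled Cdx2-Cdx1 and 1426 without the Hnf4a knockout condition. Of the alternatives added after the data were seen, counting nucleosome starts gave 723 and allowing no Hnf4a knockout nucleosome at any score gave 117.

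The share with an HNF4A peak of Cdx2 knockout (3.84%) was 5.88% as deposited, 6.98% at a score minimum of 100, 2.37% with 1 or more nucleosomes, 0.549% with peak scores of 100 or more and 5.98% with no Hnf4a knockout nucleosome. For wild-type HNF4A (5.62%) it was 2.94% as deposited, 3.61% with 1 or more, 3.59% with 3 or more, 0.549% with peak scores of 100 or more and 2.56% with no Hnf4a knockout nucleosome. For CDX2 (4.25%) it was 6.59% with 3 or more, 0.823% with peak scores of 100 or more, and 2.47% to 2.74% with 1 wild-type library left out.

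The share with another gained window within 25 kb (11.0%) was 6.62% as deposited, 7.66% with equal numbers, 24.8% with 1 or more, 5.39% with 3 or more, 18.2% without the Hnf4a knockout condition, 7.27% within 10 kb, 22.5% within 100 kb and 6.84% with no Hnf4a knockout nucleosome. The share with a wild-type nucleosome within 5 kb (49.9%) was 39.7% as deposited, 59.3% with 3 or more, 31.0% within 2 kb, 83.0% within 20 kb and 41.0% with no Hnf4a knockout nucleosome. The share of HNF4A peaks not called in wild type (89.7%) was 100% with equal numbers, with 3 or more nucleosomes, with peak scores of 100 or more and with no Hnf4a knockout nucleosome, and reached its lowest value of 78.3% without the Hnf4a knockout condition (78.6% at a score minimum of 100, 80.2% with 1 or more).

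The HNF4A difference between gained windows and gains not shared (0.580 points) turned to −0.295 with equal numbers, −0.215 with 1 or more, −2.41 with 3 or more, −0.604 on a shifted grid, −1.09 without the library titled Cdx2-Cdx1 and −0.103 with peak scores of 100 or more, and every interval included 0. The cause of these shifts was not tested. The differences of gained from other marked windows (HNF4A), of gained from lost windows (CDX2) and of peaks inside from peaks elsewhere kept their direction, with intervals that left out 0, in every alternative run, ranging from −15.6 to −6.47, −39.5 to −9.71 and 49.0 to 80.4 points. Every alternative kept gained windows unmarked in wild type, so none of them tests how much of these differences follows from the rule. No paired analysis was possible because each H3K4me2 group has 1 library and no comparison rests on a test over samples. Unknown read depth limits what an uncalled nucleosome or peak means.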

Other observations

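The 7 gained windows in which each wild-type CDX2 library had a peak were chosen after their values were seen. The window chr15:81185001-81190000 held 4, 3 and 6 nucleosomes in Cdx2 knockout, the library titled Cdx2-Cdx1 and the library titled Cdx2-Hnf4a, and was the one with a CDX2 peak in Hnf4a knockout too. In the same order, chr3:103585001-103590000 held 3, 4 and 5, chr15:78195001-78200000 held 3, 5 and 3, and chr17:28630001-28635000 held 2, 4 and 4. The window chr15:65620001-65625000 held 3, 2 and 2, chr12:73935001-73940000 held 2, 3 and 2, and chr16:18185001-18190000 held 2, 2 and 2. None of the 7 held an HNF4A peak in wild type or in Cdx2 knockout. Their distances to the nearest wild-type nucleosome ran from 135 to 14171 bp, so they include windows beside a marked domain and windows away from one. Only 1 gained window held both an HNF4A peak of Cdx2 knockout and a wild-type CDX2 peak.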
